A study of Mus musculus with 13 samples.

Results

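Glyoxylate metabolism in the murine liver was described here through 8 enzyme genes, Agxt, Agxt2, Hao1, Grhpr, Prodh2, Hoga1, Pipox and Sardh. They were picked by gene symbol from the table that the authors deposited for the liver, and all 8 were found among its 11779 genes. In the study, liver RNA of Balb/c mice was sequenced on day 5 after injection, with 3 mice given a GalNAc-conjugated mix of 5 ASOs against the lncRNA LL35 and 3 mice given the GalNAc-conjugated Luc ASO, which targets firefly luciferase, as control. An ASO is an antisense oligonucleotide that directs the cleavage of its target RNA, and GalNAc is a sugar taken up by hepatocytes. The number of 5 ASOs is that of the labels and of the study's text, whereas the study's own list of the conjugates injected holds fewer. The dose was 150 mg/kg, which the labels give for each ASO and the study's methods for the whole mix. AML12 cells, a murine hepatocyte line, were also sequenced in the study on day 2 after transfection, and were not analysed here.

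The liver table holds 1 measurement for each gene, a mean normalized count that pools the libraries compared, together with columns in which the authors compare the groups, which were not used. The values below are therefore the authors' means over LL35 ASO and Luc ASO livers pooled, and a level in one group cannot be told apart from the level in the other. With no value for single mice, no spread between mice, error or test could be given, and the number of reads behind each mean is unknown. The set was proposed with the authors' comparison of LL35 ASO with Luc ASO in view, and whether its genes differed between the groups was not tested here. The gene of LL35 itself, 9030622O22Rik, is not among the 11779 genes, so the knockdown was not checked.

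Glyoxylate is a small and reactive acid that hepatocytes make from glycolate, from hydroxyproline and in the turnover of glycine and its relatives. If it is not removed, lactate dehydrogenase turns it into oxalate, which forms crystals with calcium in the kidney. Inherited loss of AGXT, GRHPR or HOGA1 causes the primary hyperoxalurias in humans, and HAO1 is targeted to lower the supply of glyoxylate in that disease. The enzymes are spread over peroxisomes, mitochondria and cytosol.

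All 8 glyoxylate genes were abundant transcripts of the liver. Their mean normalized counts ran from 756 for Agxt2 to 8332 for Sardh, against a median of 235 over all listed genes. Long genes collect more reads, so genes were compared per kb (1000 bases) of length. The main length was the merged exon, all annotated exons of a gene laid together, and the longest transcript and the coding sequence served as alternatives. Per kb of merged exon the genes ran from 239 to 1624 with a median gene at 51.5. All 8 were in the top 25%, 6 of them in the top 5%, of the 11754 genes with a known exon length. Per kb of coding sequence, only Agxt and Sardh were in the top 5%, at percentiles 95.2 and 96.7. The others then lay between 76.6 for Agxt2 and 94.2 for Hao1. With no length, again only Agxt and Sardh were in the top 5%, at 95.4 and 98.8. The table lists no gene with a mean under 15.6, so these ranks are among listed genes and not among all genes of the mouse. In whole liver, more cells of a type and more RNA per cell cannot be told apart. The 8 genes held 0.183% of the sum of all listed means, whereas Alb, the gene of serum albumin, alone held 10.8%.

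**Figure D1:**
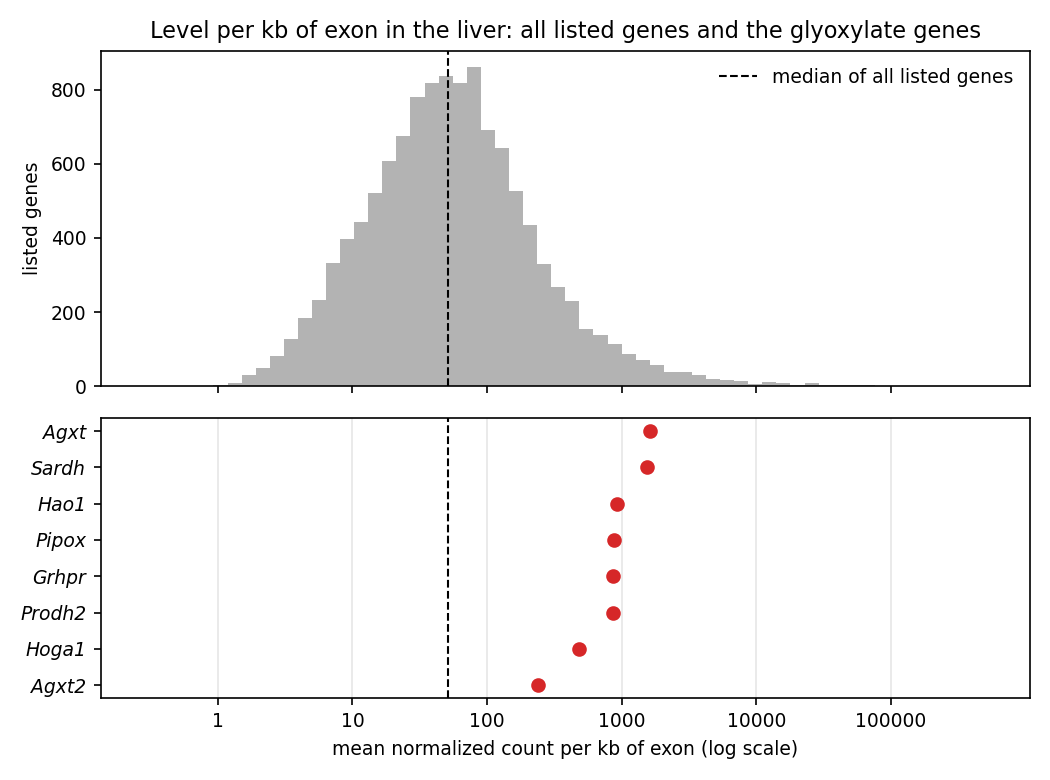
Mean normalized count per kb of merged exon on a log axis, with the number of listed genes per bin above and each glyoxylate gene as a point below. The dashed line is the median of all listed genes, 51.5, and the 8 points lie to the right of it, from 239 for Agxt2 to 1624 for Agxt.

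Agxt encodes the alanine-glyoxylate aminotransferase that turns glyoxylate into glycine with alanine as the amino donor. Its row (ENSMUSG00000026272) gave a mean normalized count of 2757. Over 1697 bases in 12 merged exons this was 1624 per kb, 31.5 times the median gene, at percentile 97.8 and exceeded by 261 listed genes. Agxt had the first rank of the 8 per kb of merged exon, but only the second per kb of the longest transcript or of coding sequence.

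Agxt2 encodes a mitochondrial aminotransferase that can also use alanine and glyoxylate, and is better known for breaking down beta-aminoisobutyrate and dimethylarginines. Its row (ENSMUSG00000089678) gave a mean normalized count of 756, or 239 per kb of merged exon, at percentile 86.1. Both aminotransferases carry the same activity in their names, yet Agxt lay 6.80 times above Agxt2 per kb of merged exon. The ratio was 5.16 per kb of the longest transcript and 4.85 per kb of coding sequence, and Agxt2 had the last rank of the 8 on each of these scales. On the same strand, 155 bases (4.90%) of the Agxt2 exons are shared with the annotated gene Gm21973, and reads from such bases may not have been counted for either gene.

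Hao1 encodes glycolate oxidase, the peroxisomal enzyme that makes glyoxylate from glycolate. It gave a mean normalized count of 2092 (ENSMUSG00000027261), which was 916 per kb of merged exon and percentile 96.1. Hao2, a related peroxisomal oxidase of longer hydroxy acids, had 304 per kb, so that Hao1 lay 3.02 times above it. Catalase, which removes the hydrogen peroxide that such oxidases release, was 6.39 times above Hao1 with its gene Cat at 5853 per kb.

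Grhpr encodes the reductase that returns glyoxylate to glycolate and converts hydroxypyruvate to glycerate. Its mean normalized count was 1380 (ENSMUSG00000035637), and over the 1603 bases of its merged exons its level was 861 per kb. The producer Hao1 and the reductase Grhpr thus differed by a ratio of 1.06 per kb of merged exon. The order of this pair turned with the longest transcript, where the ratio was 0.949. Per kb of coding sequence Hao1 lay 1.36 times above Grhpr. Glyctk, the kinase that acts on the glycerate formed by Grhpr, had 726 per kb of merged exon. The ratio of Grhpr to Glyctk was 1.19 on that scale but 0.709 per kb of coding sequence, so this order also turned.

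Prodh2 and Hoga1 stand at either end of the mitochondrial breakdown of hydroxyproline, an amino acid of collagen. Prodh2, the hydroxyproline dehydrogenase of the first step, had a mean normalized count of 2112 (ENSMUSG00000036892) and 859 per kb of merged exon. Hoga1, the aldolase of the last step that releases glyoxylate and pyruvate, had 1088 (ENSMUSG00000025176) and 482 per kb. The first step lay above the last by 1.78 times per kb of merged exon, 1.75 times per kb of the longest transcript and 1.16 times per kb of coding sequence. Aldh4a1, the dehydrogenase shared with proline breakdown, and Got2, a mitochondrial aspartate aminotransferase, had 454 and 659 per kb. Prodh, which acts on proline in place of hydroxyproline, had 225 per kb, and Prodh2 lay 3.81 times above it, although only 1.38 times above it per kb of coding sequence.

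Sardh and Pipox both act on sarcosine, the N-methyl form of glycine, in different organelles. Sardh, the mitochondrial sarcosine dehydrogenase, had a mean normalized count of 8332 (ENSMUSG00000009614). Its 26 merged exons hold 5432 bases, more than those of any other of the 8, and its level per kb was 1534, exceeded by 275 listed genes. Pipox, a peroxisomal oxidase of pipecolate and sarcosine, had 2154 (ENSMUSG00000017453) and 872 per kb. Sardh lay above Pipox by 1.64 to 1.76 times over the 3 gene lengths. An annotated antisense RNA, Sardhos, covers 188 bases (3.46%) of the Sardh exons, and the strand setting of the counting is not given in the sources used here.

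Ordered by level per kb of merged exon, the genes ran Agxt, Sardh, Hao1, Pipox, Grhpr, Prodh2, Hoga1, Agxt2. Since no spread between mice is known, neighbours in this order cannot be said to differ. Agxt and Sardh changed places with the gene length used, with ratios of Agxt to Sardh of 1.06, 0.963 and 0.734 per kb of merged exon, longest transcript and coding sequence. Hao1, Pipox, Grhpr and Prodh2 lay within a ratio of 1.07 of each other per kb of merged exon and within 1.44 per kb of coding sequence. Hoga1 and Agxt2 had the last places of the 8 under each of the 3 lengths.

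**Figure D2:**
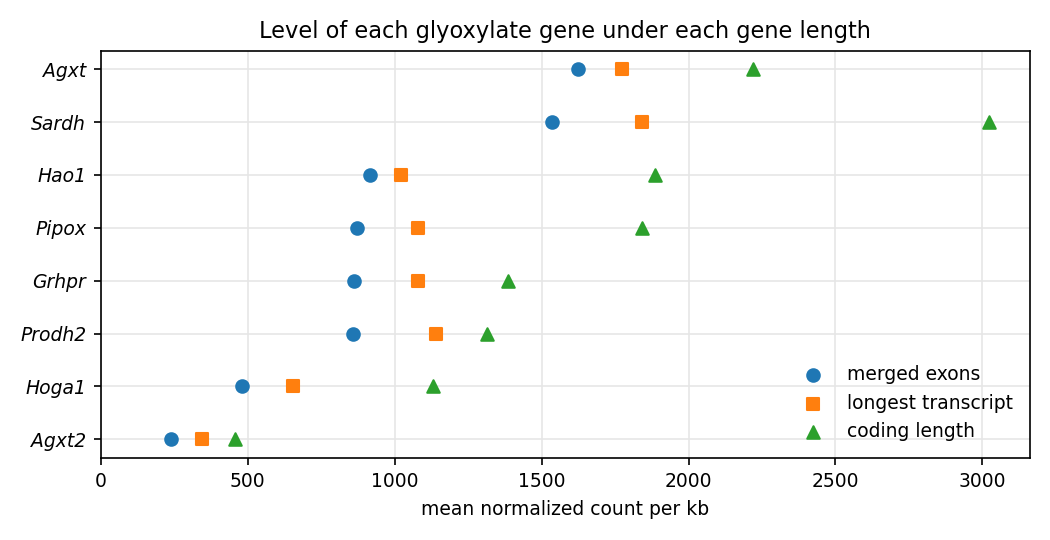
Mean normalized count per kb on a linear axis from 0 for each glyoxylate gene, with circles for merged exons, squares for the longest transcript and triangles for coding length. Agxt is the rightmost circle at 1624, whereas Sardh is the rightmost triangle at 3022, and Agxt2 is leftmost of each kind.

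The genes were then set beside other enzymes of the same routes, in lists given here by their median percentile per kb of merged exon, which was 95.9 for the 8 glyoxylate genes. Of 6 genes of choline and sarcosine breakdown, all were listed and their median percentile was 96.6. The highest of them was Gnmt, the enzyme that makes sarcosine from glycine, with 7250 per kb or 4.73 times Sardh. This ratio was 3.29 per kb of coding sequence and only 1.05 between the mean normalized counts with no length. Dmgdh, which makes sarcosine from dimethylglycine, had 1220 per kb, and the lowest was Chdh, the choline dehydrogenase, with 428. Among 11 glycine and serine genes, 9 were listed with a median percentile of 90.6, from Psph at 10.0 per kb to Sds, the serine dehydratase, at 1422. The mean normalized count of Psph was 43.4, against a lowest listed mean of 15.6. Shmt1 and Shmt2, which interconvert the glycine made by Agxt with serine, had 686 and 461 per kb. The genes Phgdh and Psat1 of serine synthesis were not among the listed genes.

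The aminotransferase list placed Agxt near the alanine aminotransferases per kb of merged exon. Of its 12 genes 11 were listed, with a median percentile of 90.8. Agxt at 1624 per kb stood beside Gpt2 at 1333 and Gpt at 1176, both of which also handle alanine. The ratio of Agxt to Gpt2 was 1.22 per kb of merged exon but 0.471 per kb of coding sequence. That of Agxt to Gpt was 1.38 and 0.969 on the same scales, so both orders turned with the length used. Tat, the tyrosine aminotransferase, had the highest level of the list at 13534 per kb, and Oat, the ornithine aminotransferase, had 3524. Phykpl, the lowest, had 24.5.

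A list of 8 genes of glyoxylate and oxalate exits, which also holds the glyoxalases Glo1 and Hagh, was listed in full, and its highest level was that of Ldha with 2317 per kb. It encodes the lactate dehydrogenase subunit that can oxidize glyoxylate to oxalate, and it lay 1.43 times above Agxt per kb of merged exon, 2.38 times per kb of the longest transcript and 3.19 times per kb of coding sequence. Above Grhpr it lay by 2.69, 3.92 and 5.11 times on the same scales. Ldhb, the other common subunit, had 16.0 per kb. Of the oxalate exchangers, Slc26a1 had 730 per kb and Slc26a6 had 6.39, the lowest of the list, whose median percentile was 89.3. The mean normalized counts of Ldhb and Slc26a6 were 25.1 and 34.6, near the lowest listed mean of 15.6. Of 11 peroxisomal genes 10 were listed, with a median percentile of 93.9, and the lowest of them was Ddo at 45.3 per kb. Pex5, the import receptor for peroxisomal enzymes, had 415 per kb, and Dao was not listed. Of 7 hydroxyproline and proline genes 5 were listed, with a median percentile of 92.6, and the highest of them was Got1 at 1998 per kb.

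**Figure D3:**
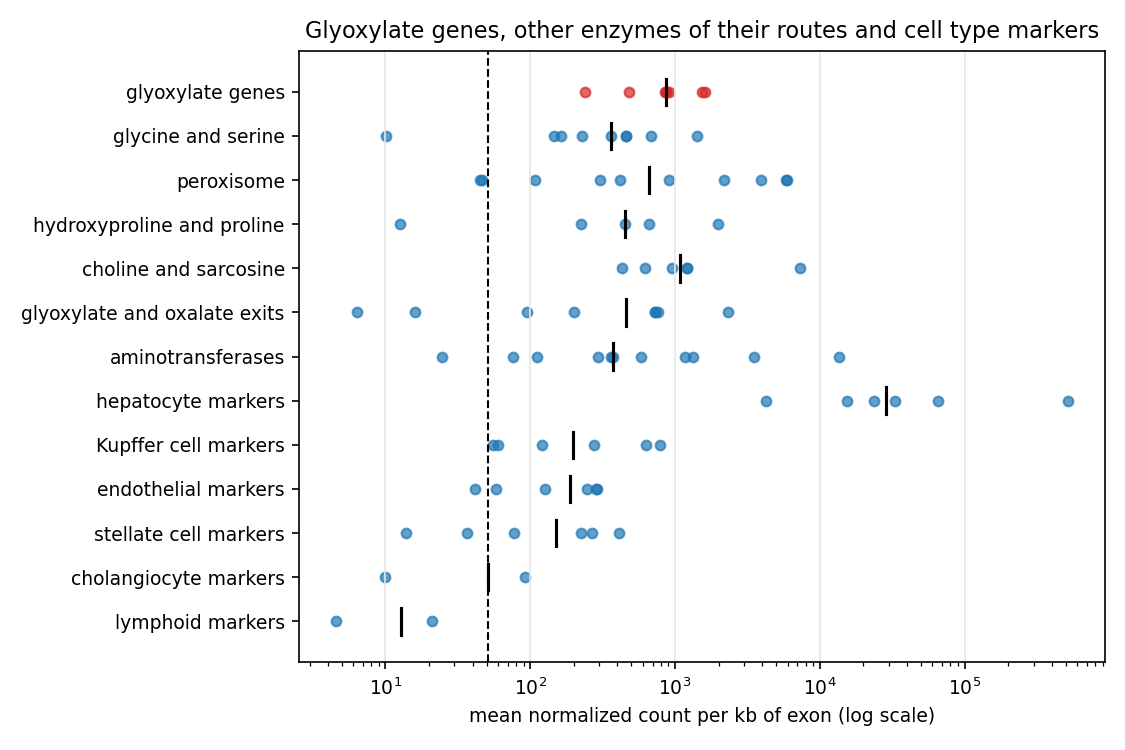
Mean normalized count per kb of merged exon on a log axis for each listed gene of the glyoxylate set (red) and of the other lists (blue), with a black bar at each list's median and a dashed line at the median of all listed genes, 51.5. The glyoxylate genes lie between 239 and 1624, below the hepatocyte markers, whose lowest gene is Serpina1c at 4262.

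The labelled tissue was checked against cell type markers in the same table. All 6 hepatocyte markers were listed, between 4262 per kb for Serpina1c and 519843 for Alb, and each lay above all 8 glyoxylate genes. Markers of other liver cells were also present, with 6 of 6 listed for Kupffer cells, endothelial cells and stellate cells each, 2 of 5 for cholangiocytes and 2 of 4 for lymphoid cells. The highest of them was Clec4f of Kupffer cells at 791 per kb, and which cells the glyoxylate transcripts came from was not tested. None of the 4 markers of kidney tubules, a tissue that also uses several of these enzymes, was among the listed genes.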

How the data were processed

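The authors sequenced RNA of 6 livers and 7 AML12 cultures. Per the study's methods and the submitters' processing notes, the authors aligned reads with STAR 2.5.3a, counted them on Ensembl genes and normalized and compared them with DESeq2. The genome build and annotation release are not given in the sources used here, so no positions are printed. The deposited liver table holds for each gene the mean normalized count, a signal that the authors averaged over libraries. It also holds the authors' own log2 fold change, its standard error, the test statistic and p-values, none of which were used. No value per mouse was used, so no test was run, and depth and precision are unknown.

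Gene lengths came from GENCODE M21 by Ensembl identifier, which matched 11754 of 11779 genes. Merged exons were the main length, and percentiles give the share of listed genes with a lower value. Length and percentile steps were checked on simulated data. Protein features were planned and not analysed here.

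The text names the 8 members and, of each list, the genes with the highest and lowest level per kb and those working next to a member, except 2 genes that are not reported here. The members and lists were chosen with earlier results of these data known. Python 3.11.15, numpy 2.4.6, pandas 2.3.3 and matplotlib 3.10.9 were used.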

Additional observations from a re-analysis of the deposited data

How the results depend on the processing

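The values rest on 1 mean per gene, so no setting could test the spread between mice. No paired analysis was possible because no value per mouse was used, and for the same reason no mouse could be left out. With no replicate error, a percentile was taken as moved when it changed by 10 points or more, and a rank or count when it changed by over 1.5 times. The median percentile of the 8 glyoxylate genes per kb stayed between 92.9 and 95.9 over the lengths and backgrounds tried, and none of 48 values for single genes moved by 10 points. Agxt2 came closest, from 86.1 to 76.6 with coding length. The rank of Agxt among the 8 was 1 per kb of merged exon, also without bases shared with another gene, and 2 with coding length, the longest transcript or no length. The settings with the longest transcript and without shared bases were chosen after seeing the data, for this rank and for the percentiles per kb. For this rank, the setting with coding length was also chosen after seeing the data. Of 24 list values, 5 moved. With no length, the median percentile of Kupffer cell markers went from 80.7 to 57.1, of cholangiocyte markers from 39.4 to 25.7 and of lymphoid markers from 14.4 to 32.3. With genes under a mean of 50 left out, that of cholangiocyte markers was 67.0 and of lymphoid markers 25.3, each resting on a single remaining gene. The stricter protein ending and the protein lengths were not run.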
